A study of Mus musculus with 6 samples.

Results

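Translation initiation factor genes were compared between label-retaining and label-free haematopoietic stem cells (HSCs) of mouse bone marrow. The members were the genes whose single symbol in the array's probe-to-gene table began with Eif1 to Eif6, leaving out the sex-linked pair Eif2s3x and Eif2s3y. They numbered 45 of 18193 genes measured and had 128 probe sets, and for each gene the probe set with the highest average across the 6 arrays was taken. Eif3j1, Eif3j2 and Eif4ebp3, whose probe sets also name other genes, were left out, and Eif1, Eif2s1 and Eif4g1 were not analysed here.

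The mice, of the SCL-tTA H2B-GFP line, carried a histone H2B fused to green fluorescent protein (GFP) behind a tetracycline-responsive element, and the tTA-S2 transactivator was expressed from the endogenous Scl locus. GFP is therefore made only in cells in which that locus is active, and doxycycline shuts its synthesis off. All 6 samples were HSCs gated as CD34-negative, lineage-negative, Sca1-positive, cKit-positive, CD150-positive and CD48-negative after a chase of 170 days on doxycycline. The 3 samples of label-retaining cells (LRC) were GFP-positive and the 3 of non-LRC were GFP-negative. Each group is described in the labels as independent samples; age, sex and whether mice were pooled are not given in the sources used here.

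Initiation begins when the small ribosomal subunit, carrying eIF1, eIF1A, eIF3 and eIF5, takes up the initiator tRNA from eIF2. The eIF4 factors bind the mRNA cap and unwind the leader so that this complex can scan to a start codon, and eIF5B then joins the large subunit. The pathway has a pair of main brakes. Kinases phosphorylate eIF2 and so block its recycling by eIF2B, and the eIF4E-binding proteins hold eIF4E away from eIF4G until mTOR releases them. HSCs are known for a low rate of protein synthesis and for being harmed when that rate is raised.

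At the level of single genes no initiation factor passed the test. limma called 0 of the 45 members at an adjusted p of 0.05, against 0% of all 45037 probe sets, and the smallest adjusted p of a member was 0.998. An unadjusted p under 0.05 was reached by 2 members, Eif3a and Eif6, or 4.44% of the 45, beside 3.75% of all genes. When changes were simulated, the fit found 0% of those of log2 size 1 and 46% of those of size 2, so most differences of the sizes measured here could not be detected with 3 arrays a group. The standard errors of the members ran from 0.18 to 1.00 on the log2 scale, with a median of 0.28.

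As a group, the members leaned toward lower values in LRC. A lower mean in LRC was found for 31 of 45 members, or 68.9%, beside 45.1% of all genes. The median difference (LRC minus non-LRC, log2) was -0.21 for the members and 0.03 for all genes. All 45 members lay above the 40th percentile of probe sets by mean; among the 12455 genes above it, 6179 had a lower mean in LRC and the median difference was 0.004. Most differences were small: 34 of the 45 were under 0.5 in size, and 3 were above 1 (Eif1ad, Eif4e2 and Eif2ak3).

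**Figure D1:**
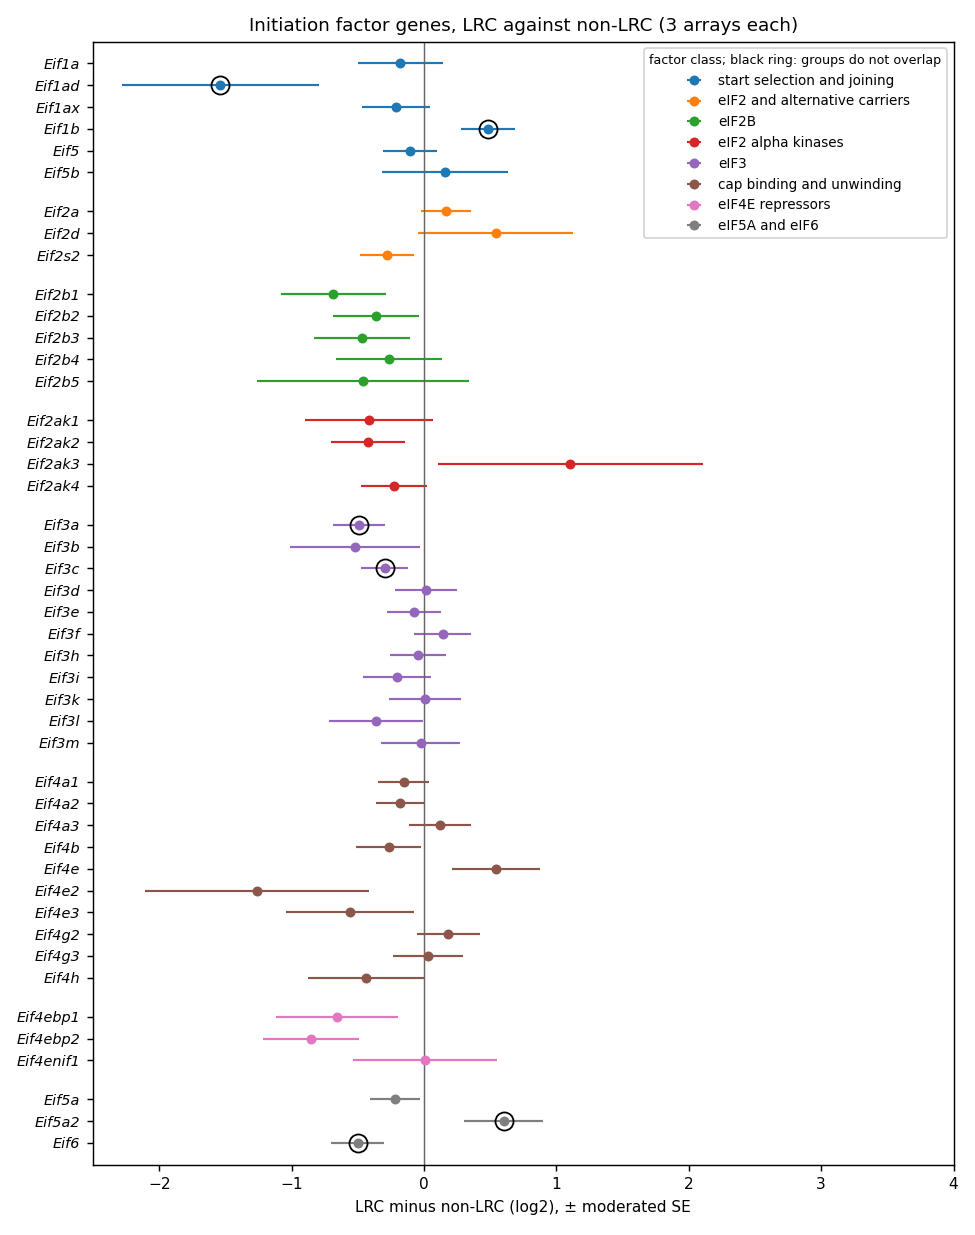
Difference between LRC and non-LRC (LRC minus non-LRC, log2; x axis) for the 45 initiation factor genes (y axis), grouped and coloured by factor class. Points are limma differences over 3 arrays against 3, bars are moderated standard errors, and black rings mark the 6 genes whose groups do not overlap; 31 points lie left of 0.

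The size of this lean differed between the LRC arrays. The mean of the 45 members was 8.42, 8.31 and 8.26 in non-LRC replicates 1, 2 and 3 and 7.94, 8.27 and 8.21 in LRC replicates 1, 2 and 3. LRC replicate 1 was thus the lowest array, and LRC replicate 2 lay within the non-LRC range. LRC replicate 1 held the lowest of the 6 values for 20 members and LRC replicate 3 for 12, while LRC replicate 2 did so for 3. Without LRC replicate 1 the median difference was -0.11, with 33 of 45 members lower, and 8 members changed sign. For all genes the median was then -0.01, with 9388 of 18193 lower. Across probe sets that array also correlated least with the others (Pearson r of 0.901 to 0.919).

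**Figure D2:**
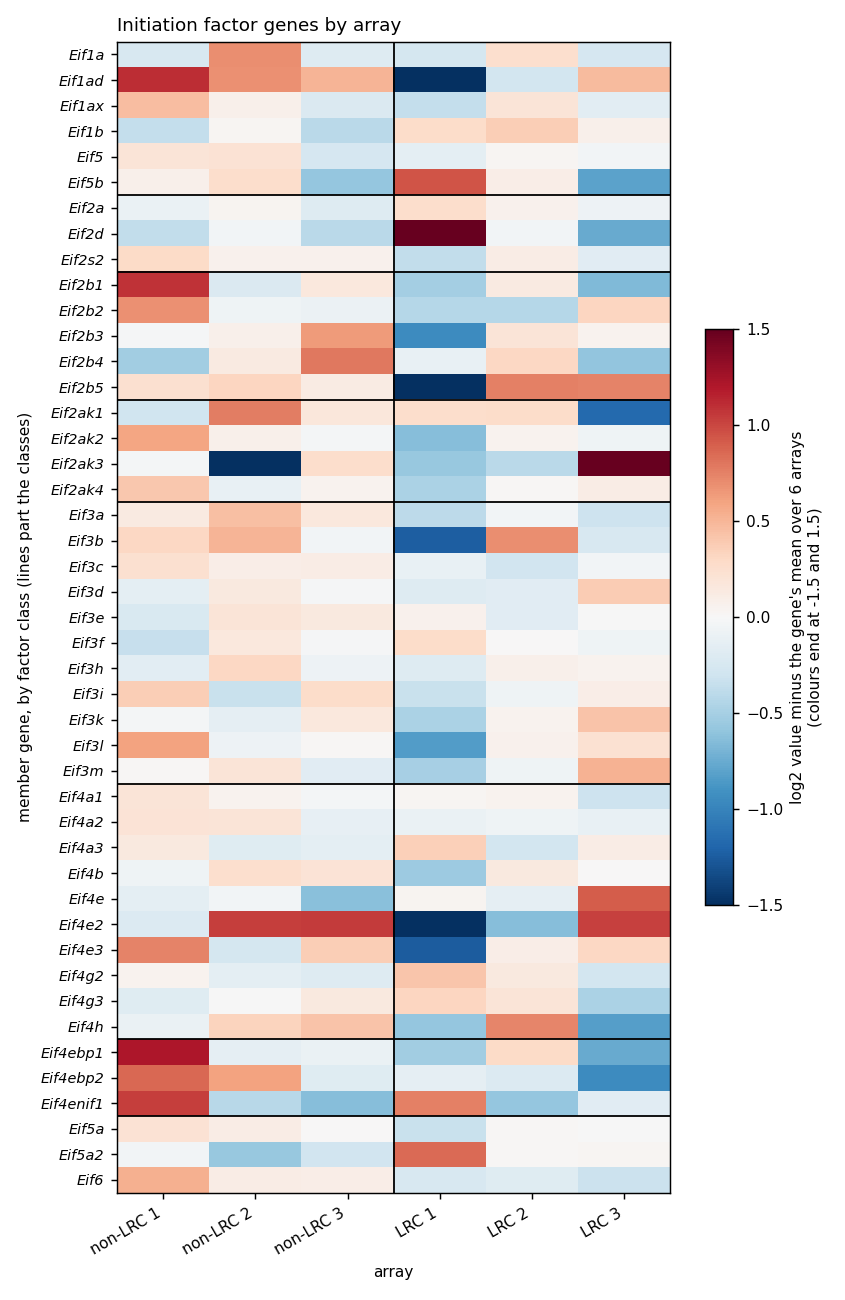
Value of each of the 45 genes (rows, parted by factor class) on each of the 6 arrays (columns), as log2 value minus the gene's mean over the 6 arrays; colours end at -1.5 and 1.5. Blue cells, below the gene's mean, are most frequent in the column of LRC replicate 1, which holds the lowest value of 20 genes.

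The spiked hybridization controls moved with the same arrays. Their mean over 18 probe sets was 11.24 on LRC replicate 1 and 11.02 on LRC replicate 3, against 10.60 on LRC replicate 2 and 10.58 to 10.70 on the non-LRC arrays. With that mean as a covariate, the median difference of the members was -0.06, and that of all genes was also -0.06. Among the 12455 genes above the 40th percentile it was -0.01. With the mean of the 9 controls of the r2 design alone as covariate, added after the data were seen, the members' median was also -0.06. With all 18 controls the LRC mean was lower for 27 of the 45 members and for 10362 of the 18193 genes. With LRC replicate 2 alone standing for its group, an alternative added after the data were seen, the members' median was -0.03 and that of all genes -0.06. Since the controls were brighter on LRC replicates 1 and 3 alone, this covariate cannot be fully told apart from the group. Fits with it, here and for single genes below, are therefore no independent check. The part of the hybridization controls in the lean, beyond these values, was not tested. The 3′ minus 5′ signal of Gapdh, a sign of RNA quality, was 4.16 on LRC replicate 1 and 2.72 to 3.42 on the other 5 arrays. That of beta-actin stood apart on LRC replicate 3 instead, at -0.61. It was -0.04 on LRC replicate 1 and -0.23 to -0.13 on the remaining arrays.

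**Figure D3:**
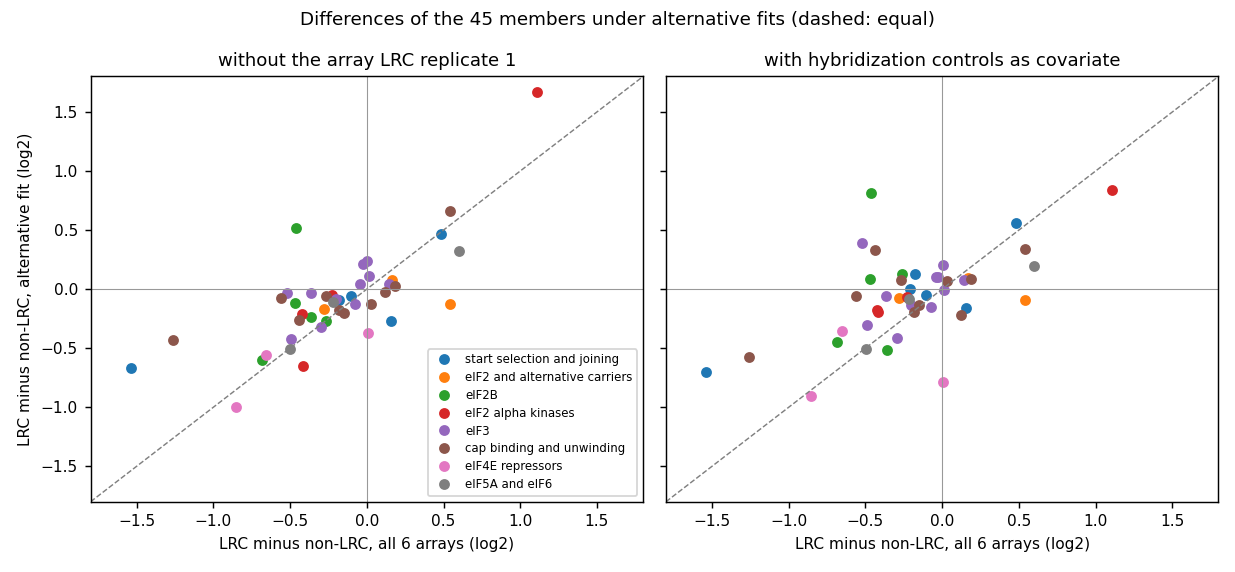
Each point is 1 of the 45 genes, with its LRC minus non-LRC difference over all 6 arrays (log2, x axis) against the same difference without LRC replicate 1 (left) or with the hybridization control level as covariate (right); the dashed line marks equal values. Of the 45 genes, 8 change sign on the left and 14 on the right.

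For 6 members the 3 LRC values did not overlap the 3 non-LRC values. That was 13.3% of the 45, where 8.32% of all genes had groups that did not overlap. The members Eif1ad, Eif3a, Eif3c and Eif6 were lower in LRC (8.89%, beside 3.62% of all genes), and Eif1b and Eif5a2 were higher (4.44%, beside 4.71%). Among the 12455 genes above the 40th percentile, where all members lay, 557 were fully lower and 550 fully higher in LRC. On the averages of all probe sets of a gene, 3 members had groups that did not overlap, a count whose share over all genes is not given here. These 6 genes are described first within their classes.

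**Figure D4:**
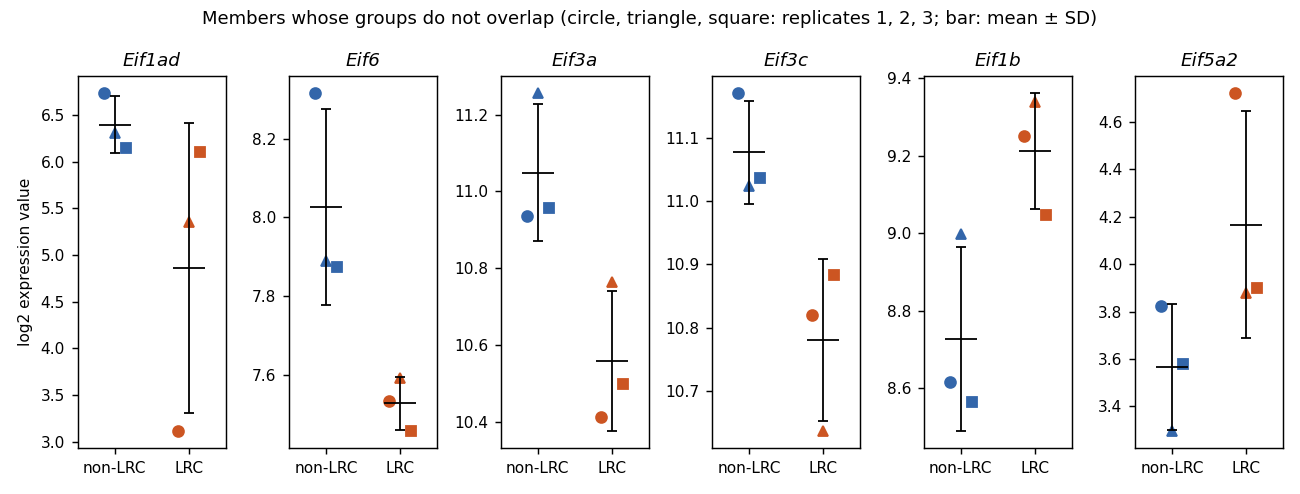
Log2 expression values (y axis, scaled for each gene and not starting at 0) of the 6 genes whose groups did not overlap, in non-LRC (blue) and LRC (orange). Circles, triangles and squares are replicates 1, 2 and 3, and bars give mean ± SD (n = 3); the LRC values of Eif6 lie between 7.46 and 7.59, below all non-LRC values.

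eIF6 binds the large ribosomal subunit and keeps it from joining the small subunit before it is released. Eif6 measured 8.32, 7.89 and 7.87 in non-LRC and 7.53, 7.59 and 7.46 in LRC. Every LRC array lay below every non-LRC array, and the LRC values were close together. The means were 8.03 ± 0.25 and 7.53 ± 0.07 (log2, SD, n = 3 each), which is a 1.41-fold lower level in LRC. The difference was -0.50 (SE 0.20) and did not pass in limma (adjusted p = 0.998). It was -0.58 to -0.36 when single arrays were left out, where groups that do not overlap fix the sign in advance. With the hybridization controls as covariate it was -0.51 (SE 0.26). The other Eif6 probe set gave 5.85, 5.89 and 5.71 in non-LRC and 4.66, 5.37 and 5.31 in LRC, again without overlap, with a difference of -0.70 (SE 0.25).

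eIF5A carries hypusine, a modified lysine made by Dhps and Dohh, and helps the ribosome through difficult peptide bonds. Eif5a measured 11.37, 11.27 and 11.17 in non-LRC and 10.82, 11.17 and 11.15 in LRC. LRC replicate 2 lay just above non-LRC replicate 3, and the difference was -0.22 (SE 0.19), or -0.11 without LRC replicate 1. Its paralog Eif5a2 measured 3.82, 3.30 and 3.58 in non-LRC and 4.72, 3.88 and 3.90 in LRC. All of these Eif5a2 values but that of LRC replicate 1 lay below the array medians (4.33 to 4.39), so the difference of 0.60 (SE 0.30) is one between dim signals. It was 0.20 with the hybridization controls as covariate.

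eIF3 is the large scaffold that holds the small subunit to the mRNA and to eIF4G; 11 of its subunits were measured, and 8 had a lower mean in LRC. The median difference was -0.08, and the range was -0.52 to 0.14. Eif3a encodes the largest subunit. Its values were 10.94, 11.26 and 10.96 in non-LRC and 10.41, 10.76 and 10.50 in LRC, so that the groups were apart. The difference was -0.49 (SE 0.20, limma adjusted p = 0.998), a 1.41-fold lower level, and -0.30 with the hybridization controls as covariate. All 3 other probe sets of Eif3a had the same sign, with differences of -0.27 to -0.19.

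Eif3c, which anchors eIF1 and eIF5 to the complex, measured 11.17, 11.02 and 11.04 in non-LRC and 10.82, 10.64 and 10.88 in LRC. The values of each group were close together, and the difference was -0.30 (SE 0.18). Of the 3 further Eif3c probe sets, 1 had this sign. Eif3b, the RNA-binding partner of Eif3a, measured 6.46, 6.65 and 6.10 in non-LRC and 4.90, 6.84 and 5.90 in LRC. The lowest and the highest of these 6 values were both from LRC arrays, and the difference of -0.52 (SE 0.49) was -0.03 without LRC replicate 1. Apart from Eif3f, described with its promoter, the 7 other subunits differed by -0.36 to 0.01, and 5 of them had a lower mean in LRC.

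Of the factors of start codon choice and subunit joining, 6 were measured, and 4 had a lower mean in LRC (median difference -0.14). eIF1 and eIF1A keep the scanning ribosome open until the start codon is found. Eif1b, a close paralog of Eif1, measured 8.62, 8.999 and 8.57 in non-LRC and 9.25, 9.34 and 9.05 in LRC. All LRC values were higher, by 0.48 on average (SE 0.21, limma adjusted p = 0.998), a 1.40-fold higher level. With single arrays left out the difference was 0.40 to 0.62, its sign again fixed by groups that do not overlap. With the controls as covariate it was 0.56 (SE 0.26). Eif1b had no other probe set.

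Eif1ad, named for its eIF1A-like domain, measured 6.73, 6.31 and 6.14 in non-LRC and 3.11, 5.35 and 6.10 in LRC. The gap between the groups was narrow, since LRC replicate 3 lay just under non-LRC replicate 3, and the difference of -1.54 (SE 0.75) was -0.67 without LRC replicate 1. The other probe set of Eif1ad gave 0.07. Eif1ax, the X-linked eIF1A gene, differed by -0.21 (SE 0.26). One of its other probe sets differed by 0.93 (SE 0.39) and the other by -1.19 (SE 0.43), so the probe sets of Eif1ax disagreed. Eif5, which triggers GTP hydrolysis by eIF2, differed by -0.11 (SE 0.21). Eif5b differed by 0.16 (SE 0.48), or -0.27 without LRC replicate 1, and both of its other probe sets had the opposite sign.

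eIF2 delivers the initiator tRNA, and eIF2A and eIF2D can deliver tRNA by other routes. Eif2s2, the beta subunit of eIF2, measured 11.10, 10.88 and 10.87 in non-LRC and 10.44, 10.92 and 10.64 in LRC. LRC replicate 2 lay within the non-LRC values, and the difference was -0.28 (SE 0.20), with all 5 other probe sets of the same sign. Eif2a differed by 0.17 (SE 0.19). Eif2d measured 7.14, 7.47 and 7.11 in non-LRC and 9.12, 7.47 and 6.76 in LRC. Here LRC replicate 1 alone was high, and without it the difference of 0.54 (SE 0.59) became -0.13.

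eIF2B is the exchange factor that reloads eIF2 with GTP. On the chosen probe sets, all 5 of its subunit genes had a lower mean in LRC. The median difference was -0.46, and none of the 5 had groups that did not overlap. Eif2b1, the alpha subunit, measured 7.89, 6.59 and 6.96 in non-LRC and 6.30, 6.94 and 6.14 in LRC. The difference was -0.68 (SE 0.40), or -0.31 without non-LRC replicate 1, which was the highest array. Eif2b3, the gamma subunit, differed by -0.47 (SE 0.37), or -0.11 without LRC replicate 1. Eif2b2, the beta subunit, differed by -0.36 (SE 0.33), or -0.11 without non-LRC replicate 1. The other probe sets of Eif2b2 disagreed, with differences of 0.74 (SE 0.37) and -0.17 (SE 0.49).

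Eif2b5, the catalytic epsilon subunit, measured 6.10, 6.18 and 5.98 in non-LRC and 3.66, 6.61 and 6.60 in LRC. LRC replicate 1 was far below the other arrays, and both remaining LRC arrays were above all non-LRC arrays. The Eif2b5 difference was accordingly -0.46 (SE 0.80) with all arrays and 0.52 without LRC replicate 1. The other Eif2b5 probe set, a dim one, gave 0.05 (SE 0.30). Over the 5 subunits, the median difference was -0.24 without LRC replicate 1. With the hybridization controls as covariate it was 0.09, and 2 of 5 were lower.

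The eIF2 alpha kinases shut initiation down under separate stresses: Eif2ak1 (HRI) in haem shortage, Eif2ak2 (PKR) with double-stranded RNA, Eif2ak3 (PERK) in the stressed endoplasmic reticulum and Eif2ak4 (GCN2) in amino acid shortage. Eif2ak2 measured 8.85, 8.33 and 8.22 in non-LRC and 7.62, 8.31 and 8.20 in LRC. Its groups overlapped at their edges, the difference was -0.42 (SE 0.28), and both other probe sets had the same sign. Eif2ak4 differed by -0.23 (SE 0.25), or -0.05 without LRC replicate 1, and its other probe set by 0.20. Eif2ak1 differed by -0.42 (SE 0.48), or 0.06 without LRC replicate 3, and all 4 other probe sets of this gene had the opposite sign. Eif2ak3 measured 5.95, 4.09 and 6.24 in non-LRC and 5.41, 5.57 and 8.62 in LRC. LRC replicate 3 alone was high, and the difference of 1.11 (SE 1.00) was 0.06 without it.

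The 10 genes of cap binding and unwinding had a median difference of -0.17, with 6 lower in LRC. Eif4e, the cap-binding protein, measured 7.53, 7.64 and 7.06 in non-LRC and 7.72, 7.55 and 8.59 in LRC. The difference of 0.54 (SE 0.33) was 0.22 without LRC replicate 3, the highest array. All 3 other Eif4e probe sets had the opposite sign, and their differences ran from -1.63 to -0.17. The mean of all its probe sets differed by -0.41, so no direction is given for Eif4e.

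Eif4e2, a cap-binding homolog linked to repression, measured 8.33, 9.57 and 9.59 in non-LRC and 6.25, 7.90 and 9.56 in LRC. The values of both groups were spread widely, and the difference was -1.26 (SE 0.85), or -0.43 without LRC replicate 1. Eif4e3, the third homolog, differed by -0.56 (SE 0.48), or -0.07 without that array. The helicase gene Eif4a1 measured 10.72, 10.58 and 10.49 in non-LRC and 10.55, 10.57 and 10.21 in LRC. Its groups overlapped and differed by -0.15 (SE 0.19, 95% interval -0.62 to 0.31). The 6 other genes of this class, among them the eIF4G family members, differed by -0.44 to 0.18, and 3 of them had a lower mean in LRC.

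The 3 eIF4E repressors had a median difference of -0.66, which was -0.44 without LRC replicate 3 and -0.21 without non-LRC replicate 1. Eif4ebp2, an eIF4E-binding protein, measured 7.43, 7.18 and 6.40 in non-LRC and 6.45, 6.37 and 5.64 in LRC. Just 1 non-LRC array, replicate 3, lay below the highest LRC array. The means were 7.01 ± 0.54 and 6.15 ± 0.45 (SD, n = 3 each), so that LRC were 1.81-fold lower. The difference was -0.85 (SE 0.36, limma adjusted p = 0.998) and stayed between -1.16 and -0.60 when single arrays were left out. With the hybridization controls as covariate it was -0.90 (SE 0.51). All 4 other probe sets of Eif4ebp2 had the same sign.

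Eif4ebp1, its paralog, measured 7.91, 6.56 and 6.60 in non-LRC and 6.18, 6.98 and 5.94 in LRC. Non-LRC replicate 1 was the highest array, and the difference of -0.66 (SE 0.46) was -0.21 without it. Both other Eif4ebp1 probe sets had the same sign. Eif4enif1, which carries eIF4E into the nucleus, differed by 0.01 (SE 0.55), and by -0.78 with the hybridization controls as covariate.

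Promoter windows from RefSeq (GRCm38.p6; from 250 bases before to 50 after each annotated start) were found for 36 of the 45 members and searched for the E-box CACGTG, the site of MYC and related factors, which reads alike on both strands. It was held by 9 of the 36 members (25%) and by 8.09% of all 27025 genes with a window. A match describes these letters and no binding. Of the members whose groups did not overlap, Eif1b, Eif5a2 and Eif3a had the E-box, and the windows of Eif1ad and Eif3c had none. Eif6 had no window and was not searched. Shown are the stretches around it in those 3 genes and in Eif4e and Eif4a1, the cap-binding protein and its helicase partner, 5′ to 3′ on the gene's strand, with the E-box in capitals:
Eif1b, chr9:120492557-120492605, plus strand: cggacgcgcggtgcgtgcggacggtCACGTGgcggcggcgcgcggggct
Eif5a2, chr3:28781110-28781190, plus strand: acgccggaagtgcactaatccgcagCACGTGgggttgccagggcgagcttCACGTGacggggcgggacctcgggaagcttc
Eif3a, chr19:60790654-60790683, minus strand: ccgcgagggaatCACGTGgttccttccttt
Eif4e, chr3:138527018-138527070, plus strand: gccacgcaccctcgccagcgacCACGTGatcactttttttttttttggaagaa
Eif4e, chr3:138527179-138527234, plus strand: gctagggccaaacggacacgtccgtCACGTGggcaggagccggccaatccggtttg
Eif4a1, chr11:69672582-69672637, minus strand: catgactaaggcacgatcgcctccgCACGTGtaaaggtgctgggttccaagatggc

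The E-box began 24 bases upstream of the annotated start in Eif1b and 23 bases into the transcript in Eif3a. Eif4e and Eif5a2 each had 2 within 1 window. The other members with a match were Eif3f, Eif3k, Eif4h and Eif5a, the last with 2 sites in separate windows. These 9 genes had a median difference of 0.004 between LRC and non-LRC, with 4 of 9 lower in LRC. For the 27 members with a window and no match, the median was -0.26, with 19 lower. This split was not tested. Among the 9 it counts as higher Eif4e, for which no direction is given above, and the dim Eif5a2. A C followed by at least 4 further pyrimidines at the annotated start, the letters that open a terminal oligopyrimidine mRNA, was found in 1 of 36 members and in 3.01% of all genes. That member, Eif3f, reads gctctCTCTCTTTCTCggcaagatg at chr7:108934410-108934434 on the plus strand, with the pyrimidine run in capitals; it differed by 0.14 (SE 0.21).

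Among genes that act with these factors, 0 of 16 initiation partners passed in limma, and 9 of 16 had a lower mean in LRC (median difference -0.12). Larp1, which binds terminal oligopyrimidine mRNAs under mTOR control, differed by -0.76 (SE 0.24), and Pabpc4, a poly(A)-binding protein, by -0.81 (SE 0.28). In 4 of the 16, namely Larp1, Pabpc4, Pabpc1 and Abcf1, no LRC array reached the lowest non-LRC array, which held for 3.62% of all genes. The 1 other Pabpc1 probe set had the opposite sign, and of the 5 others of Abcf1, 3 had the same sign. With the hybridization controls as covariate, the differences of Larp1 and Pabpc4 were -0.41 and -0.49, and the list median was 0.02. Of the genes of elongation and termination, 0 of 11 passed and 9 of 11 were lower (median difference -0.21). With the hybridization controls as covariate the median was -0.04 with 7 of 11 lower, and without LRC replicate 1 it was -0.10, also with 7 lower. Here 4 of the 11 were fully below non-LRC (3.62% of all genes were), Eef1b2, Eef1e1, Dhps and Dohh. Eef1e1, an auxiliary protein of the tRNA synthetase complex, differed by -1.14 (SE 0.37), or -0.51 with that covariate, and Eef1b2, an exchange factor of eEF1A, by -0.21 (SE 0.19). Dhps and Dohh, the enzymes of the eIF5A hypusine, differed by -1.01 (SE 0.55) and -0.25 (SE 0.19). The Dhps difference was -0.39 without LRC replicate 1. With the hybridization controls as covariate, Dhps differed by -0.11, Eef1b2 by -0.04 and Dohh by -0.30. The 1 other Dhps probe set had the opposite sign.

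In the list of integrated stress response and mTOR input, 0 of 15 genes passed. A higher mean in LRC was found for 10 of 15 (median difference 0.10), beside 9984 of all 18193 genes. The list median was 0.06 without LRC replicate 1 and 0.13 with the hybridization controls as covariate. Trib3, a feedback inhibitor induced by ATF4, had means of 7.06 in non-LRC and 8.78 in LRC. It was the 1 gene of the 15 whose groups did not overlap, where 4.71% of all genes were fully higher in LRC. It differed by 1.72 (SE 0.46, limma adjusted p = 0.998), or 1.26 to 2.07 with single arrays left out, where the sign could not change. Atf4 and Ddit3, the transcription factors above it, differed by 0.20 (SE 0.22) and 0.10 (SE 0.33). Tsc1, a brake on mTOR, differed by 0.78 (SE 0.39), and Mtor by 0.16 (SE 0.31).

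Markers of the gate and of other cells were measured beside these genes. In these bulk samples fewer cells of a type and less RNA per cell cannot be told apart. Of 5 gate genes 4 were measured, and their mean over both wanted and unwanted antigens was 5.18 to 6.61 in LRC and 6.56 to 6.59 in non-LRC. Of the wanted antigens, Kit averaged 9.07 in LRC against 9.05 in non-LRC. Slamf1 (CD150) averaged 7.61 ± 1.30 and 7.98 ± 0.68 (SD, n = 3), with 6.24 on LRC replicate 1. Of the antigens the sort selects against, Cd48 averaged 2.60 and 2.73, under the array medians, and Cd34 averaged 4.86 ± 2.23 and 6.55 ± 0.90 (SD, n = 3), above them, with 2.52 on LRC replicate 1. The 6 cycling genes measured of 7 listed all had a lower mean in LRC, and their mean was 6.63 to 7.98 in LRC and 8.30 to 9.03 in non-LRC. Myeloid genes (6 of 6 measured) had a lower mean in 5, at 5.68 to 7.13 in LRC and 6.62 to 7.84 in non-LRC. Megakaryocyte genes (5 of 5 measured) had a lower mean in 4, at 5.22 to 5.30 and 5.05 to 6.27. Mean levels of 4 of 6 erythroid genes (3.52 to 4.29 in LRC, 3.60 to 4.71 in non-LRC), 4 of 5 B cell genes (5.03 to 5.74 and 4.98 to 5.26), 4 of 5 T cell genes (3.53 to 3.97 and 3.66 to 3.91) and 5 of 5 endothelial and stromal genes (3.81 to 4.25 and 3.86 to 4.10) overlapped between groups. LRC replicate 1 stood apart in single markers. Vpreb1, of the B cell list, was at 9.58 there and at 4.96 to 6.84 on the other arrays. The rest of that list was not raised there beyond the other arrays: Cd79a was at 3.94 (elsewhere 3.56 to 3.97), Cd79b at 5.52 (6.05 to 7.17) and Ebf1 at 3.93 (3.87 to 4.33). Mpo, of the myeloid list, was at 4.03 against 7.57 to 9.20. Elane, Ctsg and Lyz2 were also lowest on that array, while S100a8 and S100a9 were not. The part of these lists in the values of the initiation factors was not tested.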

How the data were processed

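Total RNA of 3 LRC and 3 non-LRC samples was amplified in 2 rounds (NuGEN WT-Ovation Pico), biotin-labelled and hybridized to 1 array each, per the labels. Each deposited value is the log2 signal of 1 probe set, computed by the authors with RMA, per the submitters' processing notes; base 2 is not stated and follows from the span of the values. Quantile normalization within RMA hides any change in total RNA per cell. Of 45101 probe sets, 64 controls were left out. limma 3.58.1 (R 4.3.3; lmFit and eBayes, no covariate) was run on the other 45037 probe sets with Benjamini-Hochberg adjustment over all of them, threshold 0.05; errors are moderated standard errors. Of these, 34945 named 1 gene in the platform annotation, 932 several and 9160 none. The fit was tested on simulated data. The number of arrays limits the precision, and columns of other samples numbered 0. P-values measure the spread between these samples only.

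Members and lists were chosen with earlier results of these data known. The rule named each member whose groups did not overlap, the 3 of smallest p in each class and a fixed set of core factors. For partner lists it named the 2 of smallest p; further members and partners were named after their values were seen. Alternatives were another quantile normalization, median centring, a filter at the 40th percentile, other choices of probe set, array weights, moderation with trend and robust settings, replicate number as a block, the control covariate, other thresholds and each array left out.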

Additional observations from a re-analysis of the deposited data

Results flagged for a closer look

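The hybridization controls, which take no part in the comparison of the members, were brighter in LRC than in non-LRC by 0.33 on the log2 scale in the mean. This came from LRC replicates 1 and 3, while LRC replicate 2 lay within the non-LRC range.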

How the results depend on the processing

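No member was called under any of the 17 alternative fits, nor at an adjusted p under 0.1. In the main fit 2 had an unadjusted p under 0.05. That count was 0 with dim probe sets left out and 3 with quantile normalization. The median difference of the members ran from -0.27 to -0.11 with each array omitted in turn, and the count with groups that did not overlap from 8 to 15 (such counts rise with fewer arrays). That count was 3 with the mean of all probe sets. The share of all genes under these settings is not given here, so none of these counts is read as a result about the members. Of the 30 members given with values, 17 kept their sign in every fit, and of all 45, 31 did so with each array left out. For members whose groups did not overlap, the sign with an array left out was fixed in advance. With the mean of all probe sets, Eif2ak1 (0.069), Eif2b2 (0.070), Eif4e (-0.41) and Eif5b (-0.13) changed sign, as did Eif5b (-0.096) with array weights. With probe sets without a suffix preferred, Eif1ax (0.93), Eif2ak4 (0.20), Eif2d (-0.094), Eif4a1 (0.0022) and Eif4e2 (0.21) did so. With the control covariate these were Eif2b3 (0.085), Eif2b5 (0.81), Eif2d (-0.094), Eif3b (0.39), Eif4enif1 (-0.78) and Eif5b (-0.16), and with the r2 controls alone Eif1ax (0.0088), Eif2b3 (0.059), Eif2b5 (0.74), Eif2d (-0.042), Eif3b (0.37), Eif4enif1 (-0.72) and Eif5b (-0.12). With LRC replicate 2 alone they were Eif1ax (0.088), Eif2ak1 (0.072), Eif2b5 (0.53), Eif3b (0.44) and Eif4enif1 (-0.58). Without single arrays, Eif2b5 ran from -0.96 to 0.52, Eif2d from -0.13 to 1.05, Eif2ak1 from -0.67 to 0.062, Eif5b from -0.27 to 0.60 and Eif4enif1 from -0.37 to 0.53. The cause was not tested. With the replicate block 0 members were called; same-numbered samples correlated in their deviations by 0.08 to 0.14, each best with its own number, a hint from the data and not from the design.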
